A study of Mus musculus with 3 samples.

Results

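Binding of NUR77 was examined around 5 genes of monocyte fate and function, Klf2, Klf4, Cx3cr1, Cxcr4 and Ucp2. The members were the ChIP-seq peaks whose centre lay in a window drawn around each gene on mouse build mm9. They numbered 48 of the 52946 peaks listed for 3 replicates. The windows were 74.76 to 74.92 Mb on chromosome 8 for Klf2, 55.42 to 55.66 Mb on chromosome 4 for Klf4, 119.87 to 120.05 Mb on chromosome 9 for Cx3cr1, 130.38 to 130.6 Mb on chromosome 1 for Cxcr4 and 107.57 to 107.72 Mb on chromosome 7 for Ucp2. Together they span 0.95 Mb. Each window carries the name of the gene it was drawn around, and gene borders were not placed on mm9 here, so positions are given within windows and no peak is assigned to a gene.

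The study has 1 group. RAW264.7, a mouse macrophage cell line, carried the doxycycline-inducible construct pINDUCER20b-HA-NUR77, and every replicate received 1 µg/mL doxycycline for 18 hours before precipitation with an antibody to the HA tag. Each replicate was grown in 6 dishes of one stable line. The peaks therefore report a tagged, overexpressed NUR77 in a macrophage line, and no uninduced, untagged or input sample was analysed here. Peak lists hold no expression, so the cell type could not be checked against markers, and monocytes were not measured.

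NUR77, encoded by Nr4a1, is an orphan nuclear receptor that binds DNA as a monomer at the NBRE, an extended half-site, and as a dimer at the NurRE. In mice it is required for the patrolling, Ly6C-low monocyte, which is marked by high surface CX3CR1. KLF2 and KLF4 are zinc finger transcription factors of the Krüppel-like family, KLF2 known for restraining the activation of myeloid cells and KLF4 for monocyte differentiation. CX3CR1 is the receptor of the chemokine fractalkine, CXCR4 is the receptor of CXCL12 and retains leukocytes in bone marrow, and UCP2 is an uncoupling protein of the mitochondrial inner membrane.

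The reference sequence just before the annotated start is shown for the window with the most replicated peaks, Cx3cr1, for the one with a peak pair in every replicate, Klf2, and for the one without a peak, Cxcr4. The 250 bases are from RefSeq on GRCm38.p6, each ending at the base before the start, and capitals mark CG dinucleotides. Whether a listed peak covers them was not tested, as the peaks are on another build.
Cx3cr1, chr9:120068297-120068546, strand -: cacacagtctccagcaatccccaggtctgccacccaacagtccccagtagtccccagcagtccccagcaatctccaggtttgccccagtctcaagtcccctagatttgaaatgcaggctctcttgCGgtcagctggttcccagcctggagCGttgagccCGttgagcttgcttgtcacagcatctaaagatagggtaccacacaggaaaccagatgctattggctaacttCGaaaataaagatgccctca
Klf2, chr8:72318812-72319061, strand +: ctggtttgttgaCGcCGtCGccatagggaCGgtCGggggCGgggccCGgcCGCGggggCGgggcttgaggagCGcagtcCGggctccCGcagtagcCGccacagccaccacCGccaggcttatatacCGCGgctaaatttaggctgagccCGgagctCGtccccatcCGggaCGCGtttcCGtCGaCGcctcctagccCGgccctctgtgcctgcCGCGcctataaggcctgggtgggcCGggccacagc
Cxcr4, chr1:128592300-128592549, strand -: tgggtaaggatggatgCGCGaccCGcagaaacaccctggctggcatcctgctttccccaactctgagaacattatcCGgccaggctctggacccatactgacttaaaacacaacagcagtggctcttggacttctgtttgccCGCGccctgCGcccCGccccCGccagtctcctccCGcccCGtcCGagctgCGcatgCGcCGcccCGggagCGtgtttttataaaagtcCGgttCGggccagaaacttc

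The upstream stretch of Cx3cr1 held 4 CG dinucleotides at 53.6% G and C, that of Klf2 held 29 at 71.2% and that of Cxcr4 held 19 at 61.2%. Klf4 had 32 at 74.0% and Ucp2 had 16 at 63.6%, against medians of 6 and 52.4% over 32851 annotated starts of the mouse genome. Exact letters were searched on both strands. The NBRE, AAAGGTCA, was present in none of the 5 upstream stretches and in 1.34% of all starts. Its core AGGTCA, which every NBRE contains, was likewise in none of the 5 and in 14.0% of all starts. The NurRE was in none of the 5 and in none of all starts, the AP-1 site TGANTCA in none of the 5 and in 6.75% of all, and the PU.1 site GAGGAAGT in none of the 5 and in 2.44% of all. These shares describe the reference sequence in this short stretch and say nothing of the peaks. For the NurRE, the search used an exact string spanning 22 letters, so sites that differ from it were not counted. With no match at any start, the NurRE search cannot set the 5 stretches apart from others. It does not show that any stretch lacks a NurRE.

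The 5 windows fell into 3 kinds. Cx3cr1, Klf2 and Ucp2 had peaks in every replicate, Klf4 had peaks in replicate 2 alone, and Cxcr4 had no peak in any list. Replicate 1 had 9 of its 6777 peaks in the windows, replicate 2 had 29 of 37307 and replicate 3 had 10 of 8862. The replicate 2 list is several times longer than the others, so counts are given for each list. The lists hold no read counts. Sequencing depth is therefore unknown, and the lack of a peak does not show the lack of binding.

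**Figure D1:**
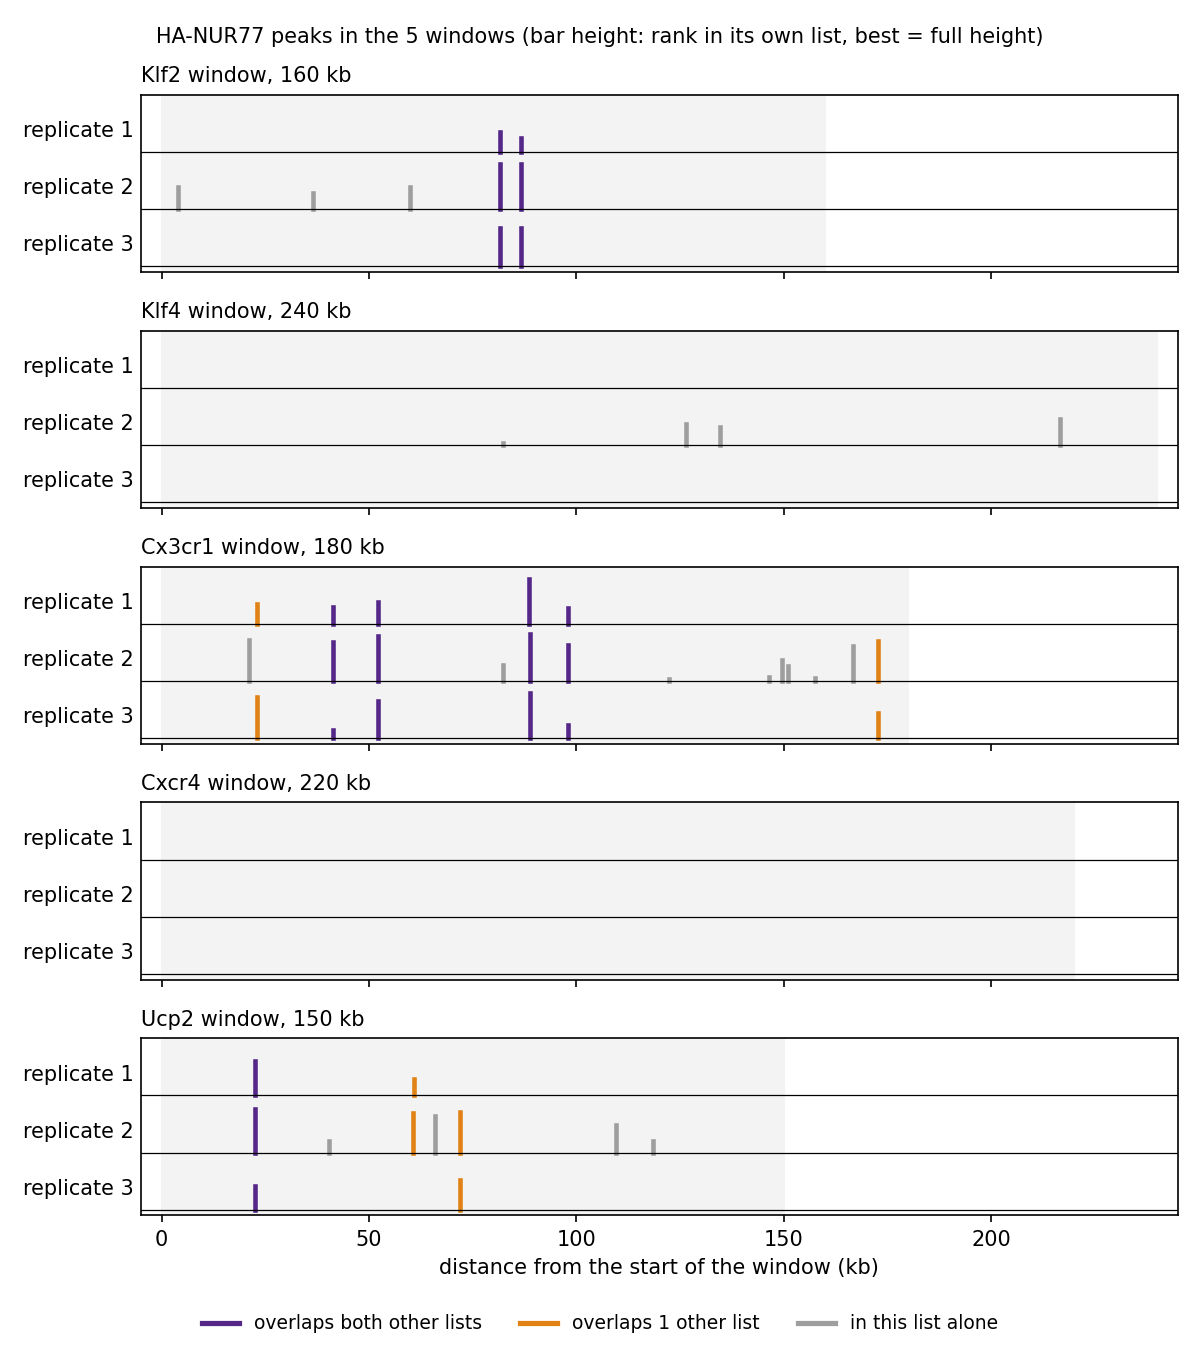
Peaks of each replicate in the 5 windows, by distance of the peak centre from the start of the window in kb (x axis); the grey area is the window, bar height is the rank by score within the own list, with the best rank at full height, and colour gives how many other lists have an overlapping peak. Cx3cr1 holds 24 peaks, Ucp2 11, Klf2 9, Klf4 4 and Cxcr4 none.

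Overlapping peaks of the 3 lists were merged into 30 regions. Of these, 11 (36.7%) had peaks of at least 2 replicates and 7 (23.3%) had peaks of all 3, against 25.4% and 12.3% of the 38463 regions of the whole series. The remaining 19 regions were replicate 2 peaks alone, and no region was of replicate 1 or replicate 3 alone. Of the 38462 regions of the nuclear genome, 27717 were of replicate 2 alone, 385 of replicate 1 alone and 606 of replicate 3 alone. Regions of replicate 2 alone were thus the most common kind in the whole series too. Cx3cr1 held 6 of the 11 replicated regions, Ucp2 held 3 and Klf2 held 2, while Klf4 and Cxcr4 held none. The 7 regions of all 3 replicates were 4 at Cx3cr1, 2 at Klf2 and 1 at Ucp2. With only the higher-scored 50% of each list kept, 7 replicated regions were left, and 1 of all 3 replicates, the Cx3cr1 region at 88.7 kb described with that window. The density of replicated regions in the windows relative to the nuclear genome was then 4.12, against 3.15 with the whole lists. The windows thus did not lose a larger share of replicated regions than the genome. For regions of all 3 replicates the genome share at this setting was not computed.

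All 9 replicate 1 peaks and all 10 replicate 3 peaks in the windows overlapped another list, against 94.3% and 93.2% of their whole lists. Of the 29 replicate 2 peaks, 10 did (34.5%, 95% Wilson interval 19.9 to 52.7), against 25.7% of that list. Both other lists were overlapped by 7 of 9 peaks in replicate 1 (77.8%, 45.3 to 93.7), 7 of 29 in replicate 2 (24.1%, 12.2 to 42.1) and 7 of 10 in replicate 3 (70.0%, 39.7 to 89.2). The whole lists had 69.1%, 12.7% and 52.8%. Every whole-list share lay within the interval of the window peaks, so a difference in sharing from the rest of the series was not detectable with these few peaks. The intervals cover counting error only, and the 3 shares are not independent, as each list defines sharing for the others.

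The Cx3cr1 window was the richest. Replicates 1, 2 and 3 listed 5, 13 and 6 peaks in it (mean ± SD, 8.0 ± 4.4, n = 3). The lists differ in length, so the SD of peak counts, here and for the windows below, is not a spread of binding alone. Its 6 replicated regions in 180 kb correspond to 33.3 per Mb, against 3.67 per Mb of the nuclear genome and 4.17 per Mb of chromosome 9. When every chromosome was divided end to end into windows of 180 kb, 1.5% held 6 or more such regions. These windows, an added comparison made after the data were seen, include gaps and unmappable sequence and are a description of the series, not a test.

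One region stood first in the Cx3cr1 window in all 3 lists. It lay at chr9:119958397-119959046, 88.7 kb from the window start. In replicate 1 its peak scored 157.435 and ranked 429 of 6777, the best 6.33% of that list. In replicate 2 it shared the score 958.844 with 548 other peaks. The mean rank of these tied peaks was 335 of 37307, or 0.898% from the top, and the place of this peak among them is not known. In replicate 3 it scored 220.494 and ranked 437 of 8862, the best 4.93%. Within the 6777 best-scored peaks of each list, it stood at 6.33%, 4.94% and 6.45% from the top in replicates 1, 2 and 3. The 4.94% again uses the mean rank of the tied peaks. Scores were given by the authors on a scale that is not stated, so they rank peaks within a list only. The 3 peak centres lay within 23 bp of each other, and 500 bp were common to all 3 peaks. No other region of the 5 windows was in the best 10% of replicate 1 or of replicate 3. This left 1 of 9 window peaks there in replicate 1, beside 643 of the 6392 shared peaks of the whole list. In replicate 3 it was 1 of 10, beside 852 of 8256. In replicate 2, 5 of the 10 peaks in replicated regions were in the best 10%, beside 3217 of 9590 shared peaks. Such a count is thus no mark of these windows in replicates 1 and 3.

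The other 3 regions of all replicates in this window were ranked less alike. At chr9:119921797-119922446 the ranks in replicates 1, 2 and 3 were 3772, 2269 and 1986. At chr9:119910897-119911496 they were 4584, 6737 and 7627.5, so this region lay in the lower-scored part of the replicate 1 and 3 lists, at 67.6% and 86.1% from the top. At chr9:119967747-119968346 they were 4633.5, 9099.5 and 6608.5, at 68.4% from the top in replicate 1 and 74.6% in replicate 3. Replicate 2 has the longest list, so a given percentage of it covers more peaks than in the other lists. Percentages of whole lists, here and below, are therefore not on an equal footing between replicate 2 and the others.

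The first and the last of the 6 replicated regions at Cx3cr1 were found in 2 lists each. At chr9:119892898-119893147 replicate 1 had a peak of rank 4097 and replicate 3 a peak of rank 1298, the best 14.7% of that list. Replicate 2 had no overlapping peak there, but it had one of rank 5347 at chr9:119890897-119891346, with 1551 bp between them. The authors' deposited table names replicates 1 and 2 for this interval, while the lists have replicates 1 and 3. In the windows, the names in that table matched the lists for 18 of 25 intervals as written and for 25 with replicates 2 and 3 exchanged. Those 18 name all replicates or replicates 2 and 3, so they match either way. Every interval that could tell the labels apart matched only with the exchange. At chr9:120042397-120042946 replicate 2 had a peak of rank 5870 and replicate 3 one of rank 4336, with centres 126 bp apart, the widest offset of the 11 regions. The replicate 2 peak next to the first of these was also the best-ranked unshared peak of the window, and the 8 unshared peaks ranked from 5347 to 36799.

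On GRCm38 the protein-coding neighbours of Cx3cr1 are, in order, Ttc21a, Csrnp1 and Xirp1 on one side and Ccr8, Slc25a38 and Rpsa on the other. Ccr8 encodes another chemokine receptor. Which of these genes a region lies nearest on mm9 was not tested.

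**Figure D2:**
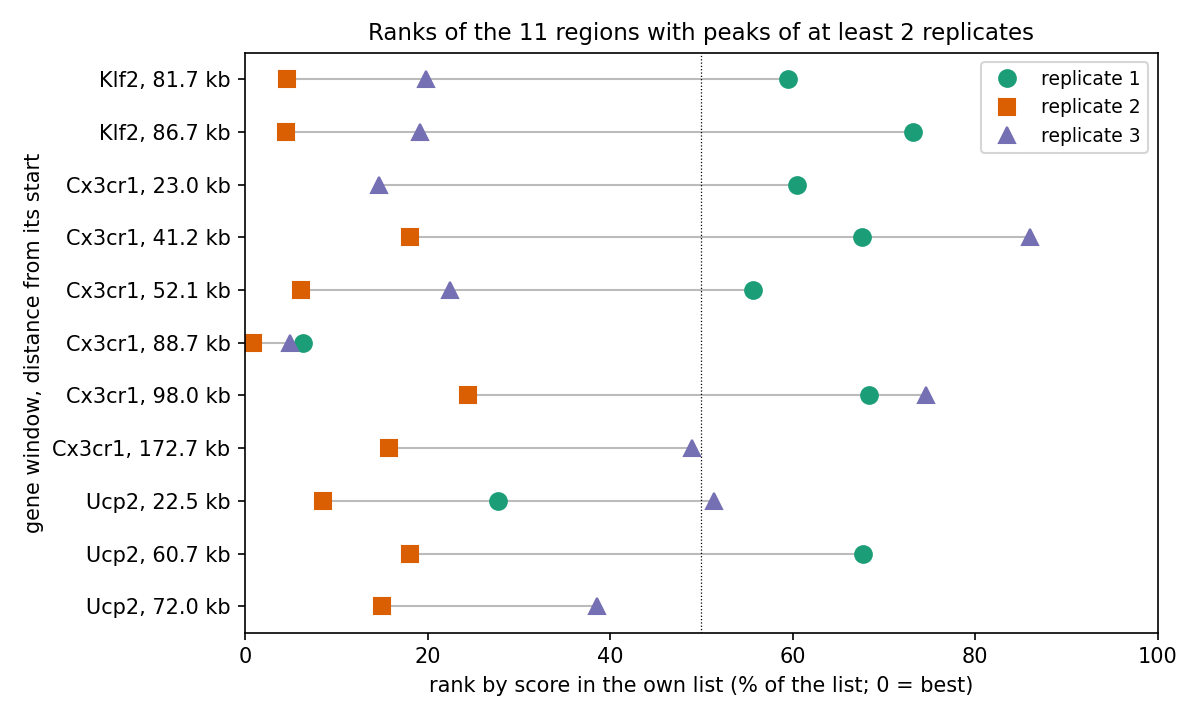
Rank by score of each of the 11 regions with peaks of at least 2 replicates, as percent of the own list (x axis, 0 is best), for replicate 1 (circles), replicate 2 (squares) and replicate 3 (triangles), with regions named by window and distance from its start. The Cx3cr1 region at 88.7 kb has its 3 points below 6.4%, the Klf2 pair has replicate 1 at 59.5% and 73.2%, and no replicate 2 point lies above 24.4% of its list, which is the longest.

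The Klf2 window held a pair of regions found in all 3 replicates and otherwise only unshared replicate 2 peaks. These lay at 54.9% to 67.4% from the top of that list, around the median of 61.2% for its unshared peaks. Replicates 1, 2 and 3 listed 2, 5 and 2 peaks in it (mean ± SD, 3.0 ± 1.7, n = 3). The pair lay at chr8:74841369-74842018 and chr8:74846369-74847018, 81.7 and 86.7 kb from the window start. In each list the centres were 5000 bp apart, and both peaks had the same width, which was 300, 650 and 450 bp in replicates 1, 2 and 3. The widths of all 48 window peaks were multiples of 50 bp, which limits how finely this spacing is known.

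The members of the Klf2 pair were ranked alike within replicates 2 and 3 and further apart in replicate 1. The first ranked 4035, 1724 and 1758.5 in replicates 1, 2 and 3. The second ranked 4960, 1656 and 1702 in the same lists. Both were thus near the top of the replicate 2 list (4.62% and 4.44%) and in the upper part of replicate 3 (19.8% and 19.2%), but in the lower-scored part of replicate 1 (59.5% and 73.2% from the top). The first was ahead in replicate 1 and the second in replicates 2 and 3. Within the 6777 best-scored peaks of each list, the better of the pair stood at 59.5%, 24.4% and 25.1% from the top in replicates 1, 2 and 3.

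Of windows of 160 kb over the whole genome, 14.3% held 2 or more replicated regions. The 3 unshared replicate 2 peaks of the Klf2 window ranked from 20488 to 25136, the best of them at chr8:74819769-74820018. On GRCm38 the nearest protein-coding neighbours of Klf2 are Cib3, Fam32a and Ap1m1 on one side and Eps15l1, Calr3 and 1700030K09Rik on the other.

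The Ucp2 window had 2, 7 and 2 peaks in replicates 1, 2 and 3 (mean ± SD, 3.7 ± 2.9, n = 3). Its 1 region of all replicates lay at chr7:107592162-107592811, 22.5 kb from the window start. It ranked 1881.5 in replicate 1 (the best 27.8%), 3197.5 in replicate 2 (the best 8.57%) and 4558.5 in replicate 3 (51.4% from the top). Within the 6777 best-scored peaks of each list, its replicate 2 peak stood at 47.2% from the top, behind its replicate 1 peak at 27.8%. This was the best-ranked peak of the window in replicates 1 and 2, while in replicate 3 the region at chr7:107641762-107642311 ranked ahead of it, at 3416, with 5612 in replicate 2 and no peak in replicate 1. The third region, at chr7:107630362-107631011, ranked 4590.5 in replicate 1 and 6754 in replicate 2 and had no peak in replicate 3.

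The number of replicated regions at Ucp2 rested on replicate 2, since 1 of the 3 was left without it. This dependence was not particular to the window. Of the 9754 replicated regions of the nuclear genome, 4722 were of all 3 replicates and 169 of replicates 1 and 3 alone, and the others needed replicate 2. Of windows of 150 kb over the whole genome, 6.95% held 3 or more. The best-ranked of the 4 unshared replicate 2 peaks lay at chr7:107635612-107636211, rank 8682, between the regions at 60.7 and 72.0 kb, and the others ranked from 16168.5 to 29276.5. Just outside the window, with its start 1.41 kb beyond the end, lay a region of replicates 2 and 3 at chr7:107721412-107722061. The member nearest to a window border was the replicate 2 peak 4.0 kb inside the Klf2 window. On GRCm38 Ucp2 lies between Ucp3, which encodes the related uncoupling protein of muscle, and Dnajb13.

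In the Klf4 window, peaks were listed in replicate 2 alone. There were 4, with ranks 36816, 21275.5, 24154 and 17559 from left to right, and the best of them, at chr4:55636326-55636875, was 47.1% from the top of its list. None was among the 6777 best-scored peaks of replicate 2. Just before the window, replicate 3 had a peak at chr4:55406187-55406336, 97.1% from the top of its list. With windows extended by 50 kb on each side, Klf4 had 6 replicate 2 peaks and this 1 of replicate 3. No replicated region was found, as in 65.0% of windows of 240 kb over the genome. The nearest replicated regions outside lay 289 kb before the window, in all 3 replicates, and 84.5 kb after it, in replicates 2 and 3. The numbers in the peak names rise along each chromosome and have gaps. Between the listed peaks on either side of the Klf4 window, 3 numbers were absent in replicate 1, none in replicate 2 and 1 in replicate 3. These flanking peaks were 615 kb apart in replicate 1 and 338 kb in replicate 3. Peaks that were numbered but not listed may thus have lain in or near this window in replicates 1 and 3. Such gaps were not particular to Klf4, as replicates 1, 2 and 3 lacked 7, 4 and 4 numbers around Klf2, 6, 3 and 3 around Cx3cr1, and 3 each around Ucp2. On GRCm38, Klf4 is flanked by Rad23b and Actl7b.

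At Cxcr4, no peak was listed in any replicate. The last listed peak before the window ended at 130344403 and the first after it began at 130601604, both in replicate 2, which left 257 kb without a peak in any list. In replicates 1 and 3 the listed peaks on either side were 325 kb apart. No peak number was absent between the flanking peaks in any of the 3 lists, so no numbered peak was missing there. Regions of all 3 replicates lay on both sides, at chr1:130295554-130296203, 83.8 kb before the window, and at chr1:130621054-130621703, 21.1 kb after it. The second ranked at 35.7%, 7.02% and 56.3% from the top in replicates 1, 2 and 3. With windows extended by 50 kb on each side, the Cxcr4 window held this 1 region.

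A window without a peak was common in the series. Of windows of 220 kb over the genome, 42.9% held no peak in any list and 66.5% held no replicated region. As for the other windows, this set includes gaps and unmappable sequence. Windows that contain a gene were not set apart, so their share without a peak is not known. Chromosome 1 as a whole had 4.23 replicated regions per Mb, close to chromosome 9 with 4.17. On GRCm38, Cxcr4 is flanked by Dars and Thsd7b.

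**Figure D3:**
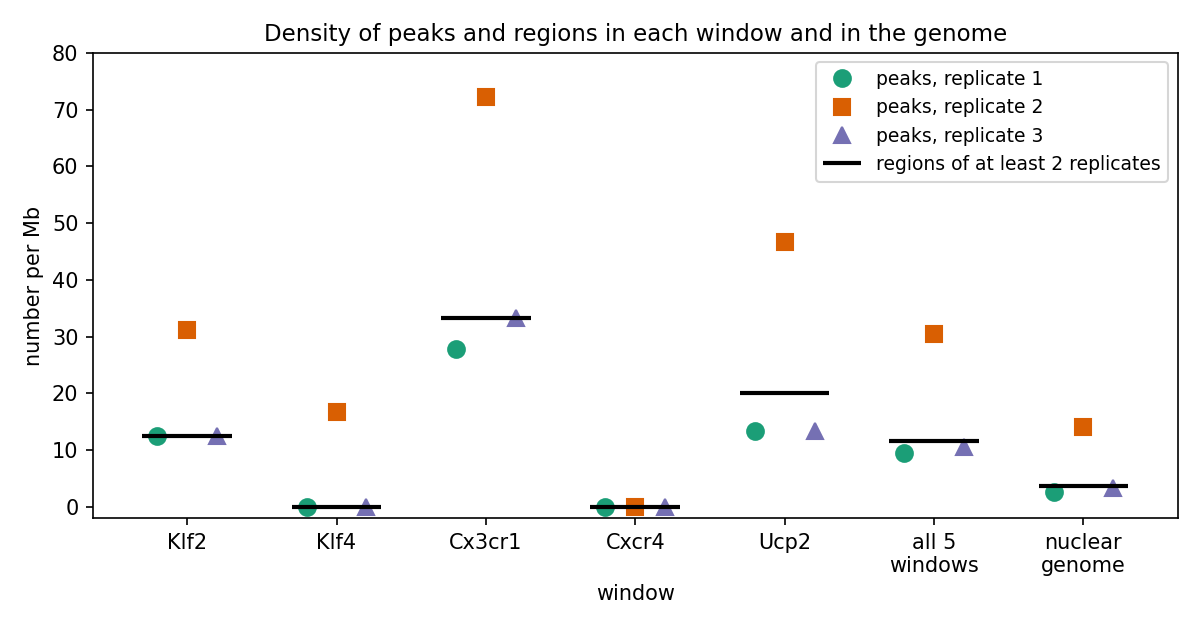
Peaks per Mb of each replicate (symbols) and regions of at least 2 replicates per Mb (black lines) in each window, in the 5 windows together and in the nuclear genome. Cx3cr1 lies highest in every list, Cxcr4 is at 0 in every list, and the windows together have 11.6 replicated regions per Mb against 3.67 in the genome.

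Counted as one stretch, the windows had 9.47, 30.5 and 10.5 peaks per Mb in replicates 1, 2 and 3, against 2.55, 14.1 and 3.34 per Mb of the nuclear genome. The ratios were 3.71, 2.17 and 3.16, a mean of 3.01 ± 0.78 (SD, n = 3). Relative to the genome, Cx3cr1 had 10.9, 5.14 and 9.99 times the peak density, Ucp2 had 5.22, 3.32 and 3.99 times, Klf2 had 4.9, 2.22 and 3.74 times, and Klf4 had 0, 1.19 and 0 times. In every list the order was Cx3cr1, Ucp2, Klf2, Klf4, with Cxcr4 at 0 beside Klf4 in replicates 1 and 3. Ucp2 and Klf2 had equal numbers of peaks in replicates 1 and 3 and were separated there only by the length of their windows. The windows were drawn around genes, and gene-rich sequence was not set apart in the genome figure, so this density is a description with no test.

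The replicated regions resembled those of the series in width and alignment. The 7 regions of all replicates had widths of 600 to 650 bp and a median width of 650 bp, and the 4723 of the series also had a median width of 650 bp. Peak centres within a region spread over a median of 51 bp in the 11 regions and 55 bp in the 9755 of the series. In replicate 2 all 10 peaks in these regions were in the better-scored 50% of the list. So were 8556 of the 9590 shared peaks of that list, so this rank is common among shared peaks. The 10 peaks had a median of 11.8% from the top, against 16.6% for all shared peaks of that list. In replicate 1 the 9 peaks had a median of 60.5%, against 48.7% for its shared peaks, and in replicate 3 the 10 peaks had 30.5% against 48.6%. All 29 replicate 2 window peaks, unshared ones included, had a median of 47.1%, against 50.0% for the whole list. The window peaks in these regions ranged from 6.33% to 73.2% in replicate 1, 0.898% to 24.4% in replicate 2 and 4.93% to 86.1% in replicate 3, so medians of so few peaks are a description only.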

How the data were processed

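HA-NUR77 ChIP-seq was done in 3 replicates. The authors deposited 1 peak list per replicate, with a score for each peak, on mm9 per the submitters' processing notes. Peak names have the form that MACS gives. The sources used here do not give the aligner, any control reads, or the version and cutoff of the peak caller. A deposited series-wide table, of another kind of value (replicate names per interval, no score), was used as an alternative and a check.

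A peak belonged to a window if its centre lay in it. Peaks were ranked by score within their own list, ties at the mean rank. Sharing between lists needed an overlap of at least 1 bp, and linked peaks formed regions. Densities used mm9 chromosome lengths of GenomeInfoDb 1.38.1, mitochondrial genome left out. With 1 group no test between conditions was possible. Every region of at least 2 replicates was named, and the best-ranked unshared peak of each window. Likeness to other genes was not computed. The members, windows and rules were chosen with earlier results of these data known. Binding motifs in peaks need an mm9 genome, not used here. Overlap finding was tested on simulated peaks. Tools were Python 3.11.15 with pandas 2.3.3, numpy 2.4.6, matplotlib 3.10.9 and scipy 1.17.1.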

Additional observations from a re-analysis of the deposited data

How the results depend on the processing

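Results were recomputed with centres within 100 bp or a reciprocal overlap of 50% as sharing, with the better-scored 50% of each list or the 6777 best peaks of each, with membership by any overlap, with windows extended by 50 kb, without each replicate, and from the authors' deposited table. For density, Y was left out or regions of all 3 replicates were used. Extending the windows or using any overlap for the peak counts of each list was added after the data were seen. Of 125 alternative values, 110 stayed within the spread between replicates or within 1.5 times the reported value, and 15 did not. For the mean share of overlapping peaks and for best ranks the limit was the SD between replicates, which is wide. Mean shares of 58.2% to 96.7%, against 78.2% as reported, passed it. So did the best Klf2 peak of replicate 2 at 24.4%, against 4.44%. The 110 values are thus not all close to those reported. With the higher-scored 50% of each list, 7 regions of at least 2 replicates remained in the windows, 1 of all 3 replicates, and 3 at Cx3cr1, from shorter lists. The density of replicated regions relative to the genome was 4.12 at that setting. With an equal number of peaks per list, the density of replicated regions relative to the genome was 5.19, against 3.15 as reported, and the best replicate 2 peak ranked at 4.94% for Cx3cr1 and 47.2% for Ucp2, from the shorter list. No Klf4 peak was left in it. With extended windows Cxcr4 had 1 replicated region, Ucp2 had 6 and Klf4 had 1 replicate 3 peak, as more sequence was counted. Ucp2 had 1 to 2 replicated regions when a replicate was left out, lowest without replicate 2. In all windows there were 8 to 9 then. No paired analysis was possible because the design has 1 group only. Depth is unknown, which limits every statement on a missing peak.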
